A study of Homo sapiens with 10 samples.

Results

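The enzymes that write and erase methyl groups on cytosine, with the factors that bring them to DNA, were followed through 10 RNA sequencing (RNA-seq) libraries of wild-type (WT) and ZNF274 knockout (KO) human cells. The 8 genes were chosen by name: the methyltransferases DNMT1, DNMT3A and DNMT3B, the maintenance factors UHRF1 and HELLS, and the dioxygenases TET1, TET2 and TET3. Of these, 7 were paired with an identifier among the 24050 genes of the count tables. UHRF1 was not paired and is named only. ZNF274 is a KRAB zinc finger protein that recruits heterochromatin to gene clusters, and the study asked which genes change when it is lost.

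The groups were 3 libraries of WT HEK293T cells (S15, S16, S17), 3 of ZNF274 KO HEK293T cells (S18, S19, S20), 2 of WT neural progenitor cells (NPC; S3, S5) and 2 of ZNF274 KO NPCs (S1, S2). HEK293T is a transformed human embryonic kidney line. The NPCs were differentiated from the H1 embryonic stem cell line through embryoid bodies in neural induction medium. In KO cells the ZNF274 gene was cut out by CRISPR-Cas9 with a pair of guides flanking it. The labels do not tie a library to a clone, and the number of independent clones per group is not known. P values therefore measure the spread between these libraries. They held 18621266 to 32285876 counts on genes. ZNF274 stood at 14.6 to 16.6 CPM (counts scaled to library size) in WT HEK293T and 23.3 to 25.4 CPM in WT NPC libraries and had 0 counts in every KO library, where 3 counts, the most that a count of 0 allows, would be 0.0917 to 0.149 CPM.

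1 library differed from the rest over all genes, the members included, and 1 group in cell type markers. The KO HEK293T library S18 was the shallowest of that line, and its counts differed from those of the other KO libraries by a chi-square of 72.0 and 81.9 per gene, against 19.99 to 45.5 between other HEK293T libraries of one group. The KO NPC libraries differed from the WT NPC libraries in cell type markers: 10 of 14 neural progenitor markers passed the test as lower and 8 of 15 mesenchymal markers as higher, where 8.36% of all 20577 genes tested passed as lower and 8.45% as higher. A gene was said to pass, or to be called, when its fold change (FC) exceeded 2 with an adjusted P under 0.05. SOX2 fell from 224 ± 5.83 to 17.2 ± 6.13 CPM (SD, n = 2), whereas NES stood at 2638 CPM in WT and 3178 CPM in KO. The summed level of 15 mesenchymal markers was 2467 to 3102 CPM in WT and 9124 to 9973 CPM in KO NPCs. The 15 summed include TWIST2, at 0 CPM in NPCs, and not DCN, which was among the 15 tested. The summed level of the 14 neural progenitor markers, most of it NES, was 3011 to 4055 CPM in WT and 3269 to 3294 CPM in KO NPCs. In bulk RNA, fewer cells of a type and less RNA per cell cannot be told apart. In HEK293T cells, 0 of 39 markers tested in 6 cell type lists passed the test by edgeR, with 3 at an unadjusted P below 0.05, where 0.489% and 7.12% of all genes did. The WT NPC libraries held neural progenitor markers at 3011 to 4055 CPM in sum, beside 108 to 122 CPM in WT HEK293T libraries, but HES5 had at most 6 counts in them. Kidney lineage markers summed to 25.1 to 37.5 CPM in WT HEK293T libraries.

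Methyl groups on CpG sites are copied to the new DNA strand behind the replication fork by DNMT1, which UHRF1 guides to hemimethylated sites, while HELLS, a chromatin remodeller, opens nucleosomal DNA to it. DNMT3A and DNMT3B place methyl groups on unmethylated DNA. TET1, TET2 and TET3 oxidise methylcytosine, which is then lost through replication or base excision repair. DNMT3B and TET1 are known for high expression in pluripotent stem cells, and DNMT3A for a lasting role in neural cells.

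The members lie on 5 chromosomes. On hg19, DNMT1 (ENSG00000130816) spans chr19:10244018-10341962 on the minus strand and HELLS (ENSG00000119969) chr10:96305086-96373662 on the plus strand. DNMT3A (ENSG00000119772) spans chr2:25450724-25565459 on the minus strand and DNMT3B (ENSG00000088305) chr20:31350191-31397165 on the plus strand. TET1 (ENSG00000138336) lies at chr10:70320094-70454244, TET2 (ENSG00000168769) at chr4:106067032-106200973 and TET3 (ENSG00000187605) at chr2:74212037-74335303, all on the plus strand.

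The promoters of the replication-linked genes DNMT1 and HELLS are shown first because these were the 2 of 7 members whose windows hold an E2F-like word. E2F factors switch on genes of S phase. Windows of 300 bases, 250 before to 50 after the start, came from RefSeq (GRCh38.p14) and each matched hg19 at 1 place, DNMT1 at chr19:10305580-10305879 on the minus strand and HELLS at chr10:96305295-96305594 on the plus strand. Capitals mark the words. Both run 5′ to 3′ along the gene.
DNMT1: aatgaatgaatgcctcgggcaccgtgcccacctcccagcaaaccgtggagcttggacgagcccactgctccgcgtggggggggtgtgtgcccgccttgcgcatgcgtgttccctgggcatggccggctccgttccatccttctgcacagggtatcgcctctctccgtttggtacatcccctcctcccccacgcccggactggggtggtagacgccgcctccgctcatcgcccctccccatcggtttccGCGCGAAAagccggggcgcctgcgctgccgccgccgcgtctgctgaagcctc
HELLS: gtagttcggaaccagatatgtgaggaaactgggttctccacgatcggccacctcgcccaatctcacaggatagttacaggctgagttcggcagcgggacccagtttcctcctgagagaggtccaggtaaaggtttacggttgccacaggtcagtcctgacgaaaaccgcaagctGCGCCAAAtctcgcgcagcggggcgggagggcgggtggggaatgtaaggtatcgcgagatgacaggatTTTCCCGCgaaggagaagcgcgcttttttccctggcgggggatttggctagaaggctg
The words searched on both strands were TTTCCCGC, TTTGGCGC, TTTCGCGC and TTTGCCGC. DNMT1 held TTTCGCGC on the opposite strand, its leftmost base at position -2 from the start. HELLS held TTTGGCGC on the opposite strand at position -76 and TTTCCCGC on its own strand at position -8. The words do not overlap each other in these windows. Of 35116 RefSeq windows of this length, 3.315% held any of the words. None of the other 14 windows of the members did, which says only that these letters are not there.

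The TET1 and TET3 windows are shown because they differ in CpG content, the sites on which these enzymes act. TET1 lies at chr10:70319844-70320143 and TET3 at chr2:74211787-74212086, both on the plus strand, and capitals mark each CG pair.
TET1: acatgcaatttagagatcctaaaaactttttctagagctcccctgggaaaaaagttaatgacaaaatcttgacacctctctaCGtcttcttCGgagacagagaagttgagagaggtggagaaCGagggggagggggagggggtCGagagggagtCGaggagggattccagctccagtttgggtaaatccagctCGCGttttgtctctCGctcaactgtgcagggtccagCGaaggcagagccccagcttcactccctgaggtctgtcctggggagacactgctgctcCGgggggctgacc
TET3: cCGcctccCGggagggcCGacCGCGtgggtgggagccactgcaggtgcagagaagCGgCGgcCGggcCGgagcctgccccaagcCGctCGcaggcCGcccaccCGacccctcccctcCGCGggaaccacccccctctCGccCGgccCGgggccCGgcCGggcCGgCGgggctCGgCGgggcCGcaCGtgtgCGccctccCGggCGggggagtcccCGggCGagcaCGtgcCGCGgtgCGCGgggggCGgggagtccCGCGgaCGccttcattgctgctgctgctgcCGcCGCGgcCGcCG
The TET1 window held 10 CG pairs and that of TET3 held 45, against a median of 14 over all windows. At the canonical start DNMT3A had 46 pairs, TET2 35, DNMT1 30 and HELLS 22. The only DNMT3B window belongs to a start site 17467 bases downstream of the canonical start and held 3.

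**Figure D1:**
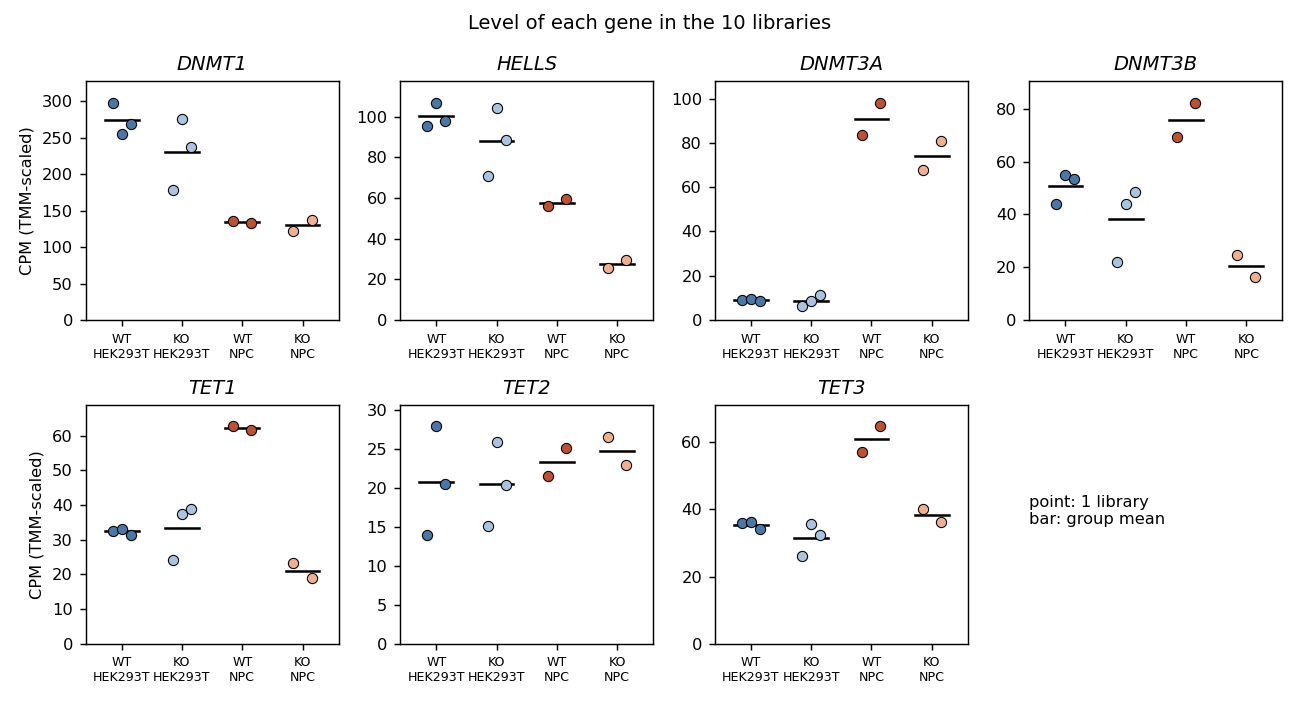
Level of each gene in CPM (y axis, from 0, a scale of its own in each panel) in each library (points) with the group mean (bar), for the 3 WT and 3 KO HEK293T and the 2 WT and 2 KO NPC libraries. HELLS, DNMT3B, TET1 and TET3 sit lower in both KO NPC libraries than in both WT NPC libraries, and DNMT3A is far higher in NPCs than in HEK293T cells.

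DNMT1, the maintenance methyltransferase, was the most abundant member per kb of canonical transcript in every group. Per kb of all annotated exons it was below DNMT3B in WT NPCs. DNMT1 did not pass the test in either cell type upon ZNF274 KO. It stood at 298, 255 and 269 CPM in WT HEK293T libraries S15, S16 and S17. In the KO HEK293T libraries S18, S19 and S20 it stood at 179, 276 and 238 CPM. The groups overlapped, with S18 lowest of all 6. WT NPCs had 135 and 133 CPM and KO NPCs 122 and 138 CPM, and these groups overlapped as well. The log2 FC was -0.24 (SE 0.16) in HEK293T cells with an adjusted P of 0.810 and -0.06 (SE 0.11) in NPCs with an adjusted P of 0.710 by edgeR, and the 95% interval of the NPC value ran from -0.32 to 0.19.

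HELLS, the remodeller of the same step, was down-regulated in KO NPCs. Its levels were 95.5, 107 and 98.2 CPM in WT and 70.9, 104 and 88.8 CPM in KO HEK293T libraries. In NPCs they were 55.9 and 59.7 CPM in WT and 25.5 and 29.6 CPM in KO. Thus, the HEK293T groups overlapped and the NPC groups did not. The log2 FC in NPCs was -1.09 (SE 0.14), a 2.12-fold fall with an edgeR adjusted P of 0.00165. Without the KO NPC library S1 the fall was 0.99 on the log2 scale (log2 FC -0.99, adjusted P = 0.0272), just short of the 2-fold threshold. In HEK293T cells the log2 FC was -0.18 (adjusted P = 0.855).

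DNMT3A, a de novo methyltransferase, differed between the cell types and did not pass the test between genotypes. WT HEK293T libraries had 8.90, 9.59 and 8.69 CPM and KO HEK293T libraries 6.21, 8.56 and 11.2 CPM. WT NPC libraries had 83.4 and 98.1 CPM and KO NPC libraries 67.9 and 80.7 CPM. KO and WT overlapped in HEK293T cells, while in NPCs both KO libraries lay below both WT libraries. The log2 FC in NPCs was -0.31 (SE 0.14) with an adjusted P of 0.143 by edgeR. This P was 0.00278 without WT NPC S3 and 0.0662 to 0.575 under the other alternatives, with the log2 FC below 0 in each. The log2 FC in HEK293T cells was -0.06 with an adjusted P of 0.970.

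DNMT3B, the other de novo methyltransferase, showed the largest fall of the 7 members in KO NPCs. It was at 69.2 and 82.2 CPM in WT NPCs and at 24.5 and 16.1 CPM in KO NPCs. In HEK293T cells the WT libraries had 44.03, 55.0 and 53.3 CPM and the KO libraries 21.9, 43.8 and 48.6 CPM, the lowest again being S18. The NPC groups were separate and the HEK293T groups overlapped. The log2 FC in NPCs was -1.91 (SE 0.22), a 3.77-fold fall with an adjusted P of 0.00106 by edgeR. Leaving out 1 NPC library at a time gave -2.26 to -1.65. In HEK293T cells the log2 FC was -0.41 (SE 0.25), the lowest of the 7 there, with an adjusted P of 0.790, and it was -0.13 without S18.

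TET1 was down-regulated in KO NPCs by almost as much. WT NPC libraries had 62.6 and 61.8 CPM and KO NPC libraries 23.3 and 18.8 CPM. WT HEK293T libraries had 32.5, 33.2 and 31.5 CPM and KO HEK293T libraries 24.2, 37.3 and 39.0 CPM. In the KO HEK293T group 1 library, S18, lay below all WT libraries and the other 2 above them. The log2 FC was -1.58 (SE 0.15) in NPCs, a 2.99-fold fall with an adjusted P of 0.000549 by edgeR, and 0.05 (SE 0.19) in HEK293T cells with an adjusted P of 0.965. A processed pseudogene, COX20P1, lies inside TET1 on the same strand, and its 78 and 70 counts in WT and 158 and 171 counts in KO NPCs went the other way.

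TET2 had overlapping levels in all 4 groups. WT HEK293T libraries had 13.9, 27.9 and 20.5 CPM and KO HEK293T libraries 15.1, 25.9 and 20.4 CPM. WT NPC libraries had 21.5 and 25.1 CPM and KO NPC libraries 26.6 and 23.0 CPM. The widest range was within WT HEK293T cells. The log2 FC was -0.01 (95% interval -0.60 to 0.57) in HEK293T cells and 0.07 (-0.33 to 0.47) in NPCs, with adjusted P values of 0.992 and 0.798 by edgeR.

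TET3 was lower in KO NPCs, though by less than the 2-fold threshold. WT NPC libraries had 57.0 and 64.7 CPM and KO NPC libraries 40.2 and 36.3 CPM, which did not overlap. WT HEK293T libraries had 36.1, 36.4 and 34.1 CPM and KO HEK293T libraries 26.3, 35.8 and 32.4 CPM, which overlapped. The NPC log2 FC was -0.69 (SE 0.13), a 1.61-fold difference with an adjusted P of 0.00959 by edgeR, and this P rose to 0.0603 without S1 and to 0.0976 without S2. In HEK293T cells the log2 FC was -0.17 (adjusted P = 0.867).

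**Figure D2:**
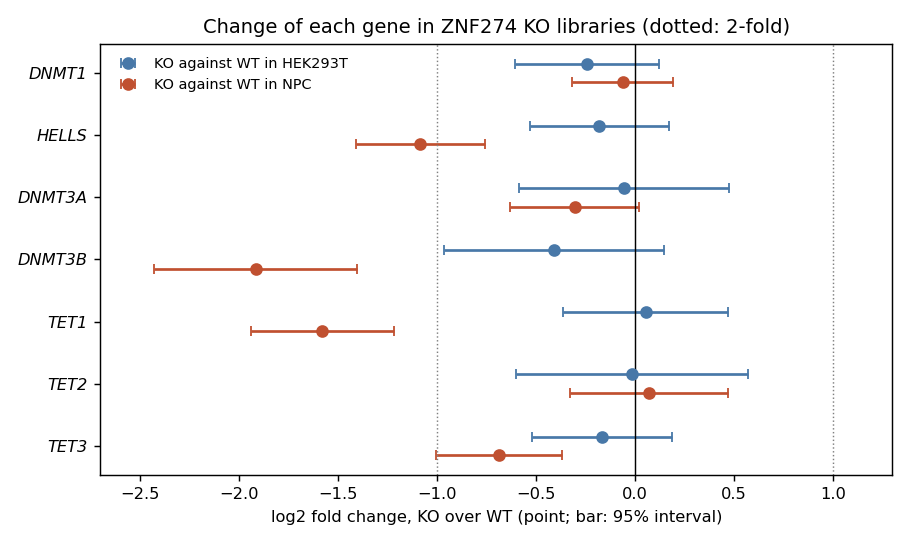
Log2 FC of each gene, KO over WT (x axis), in HEK293T cells and NPCs, with the edgeR estimate as the point and its 95% interval as the bar, and dotted lines at a 2-fold change. DNMT3B (-1.91), TET1 (-1.58) and HELLS (-1.09) lie beyond the dotted line in NPCs, and all 7 HEK293T intervals cross 0.

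In NPCs, 3 of 7 members (HELLS, DNMT3B, TET1) were called lower and 0 higher, where 8.36% of all genes tested were called lower. Without the threshold on FC, TET3 joined them, making 4 of 7, where 13.7% of genes had an adjusted P below 0.05 and a lower level. The median log2 FC of the 7 was -0.69, beside -0.02 over all genes tested. In HEK293T cells 0 of 7 were called, where 0.489% of 19018 genes were, and 0 of 7 reached an unadjusted P below 0.05, as 7.12% of genes did. DESeq2 and voom called 0 of the 7 there too. With 6 of 7 log2 FCs below 0, their median was -0.17 beside 0.01 over all genes. Of the 7, 6 were lowest in S18 among all 6 HEK293T libraries, TET2 being the exception. Without S18 the log2 FCs ran from -0.13 (DNMT3B) to 0.24 (TET1), 4 of 7 of them below 0.

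Whether the KO effect differed between the cell types was tested by the interaction in a fit of all 10 libraries. The effect was more negative in NPCs for TET1, by -1.61 on the log2 scale (SE 0.28, adjusted P = 0.00272, edgeR), and for DNMT3B, by -1.49 (SE 0.41, adjusted P = 0.0280). These 2 of 7 passed with a difference over 2-fold, where 6.22% of 19255 genes did in that direction. HELLS differed by -0.88 (SE 0.23, adjusted P = 0.0243), which is under 2-fold, and so 3 of 7 were lower by adjusted P alone, where 7.34% of genes were. TET3 differed by -0.50 (adjusted P = 0.165), and for DNMT1, DNMT3A and TET2 the differences were 0.20, -0.23 and 0.10 with adjusted P values of 0.642 to 0.927. The call of DNMT3B was lost on leaving out WT HEK293T S15 (adjusted P = 0.0602) or S17 (0.0554), KO HEK293T S20 (0.0578), WT NPC S5 (0.0786) or KO NPC S2 (0.133). For HELLS the adjusted P exceeded 0.05 without WT HEK293T S15 (0.0510) or S17 (0.0625), WT NPC S3 (0.0501) or S5 (0.0662), or KO NPC S1 (0.125) or S2 (0.0549). Without S18 all of TET1 (-1.80), DNMT3B (-1.77) and HELLS (-1.02) passed, with adjusted P values of 0.000104, 0.000855 and 0.00275.

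The cell types themselves differed most in DNMT3A. In WT cells DNMT3A was 10.02-fold higher in NPCs than in HEK293T cells (log2 FC 3.32, SE 0.22, edgeR adjusted P = 1.13e-07), and DNMT1 was 2.04-fold lower (log2 FC -1.03, SE 0.17, adjusted P = 0.000263). Thus 1 of 7 passed as higher, where 25.2% of genes did, and 1 of 7 as lower, where 15.5% did. By adjusted P alone TET1 (log2 FC 0.94) and TET3 (0.78) were also higher in NPCs and HELLS (-0.79) also lower, each by less than 2-fold, giving 3 of 7 higher where 31.4% of genes were and 2 of 7 lower where 25.4% were. DNMT3B stood higher in both WT NPC libraries than in any WT HEK293T library (log2 FC 0.58, adjusted P = 0.0982 by edgeR). Without S18 this adjusted P was 0.0125. S18 is a KO library, in the fit but in neither group compared here. TET2 differed by 0.17 (adjusted P = 0.636). The median over all genes was 0.13 in this contrast, and the cell type cannot be told apart from the table or any run it was counted in. The call of DNMT1 lies at the 2-fold threshold and was lost with DESeq2 (log2 FC -0.96) and without WT HEK293T S15 (-0.96).

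Between KO cells DNMT3B and TET1 had log2 FCs below 0, each under 2-fold, and so neither was called. For DNMT3B in KO NPCs against KO HEK293T cells it was -0.91 (adjusted P = 0.0195, edgeR), but the libraries overlapped, S18 at 21.9 CPM lying below the KO NPC S1 at 24.5 CPM. For TET1 it was -0.67 (adjusted P = 0.0134), and the libraries did not overlap. HELLS was further below HEK293T than in WT cells (-1.68, adjusted P = 5.90e-06). DNMT3A remained higher in NPCs (3.10, adjusted P = 1.73e-07), and DNMT1 lower (-0.83, adjusted P = 0.00124). This contrast was added after the data were seen and shares all its libraries with the interaction above.

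**Figure D3:**
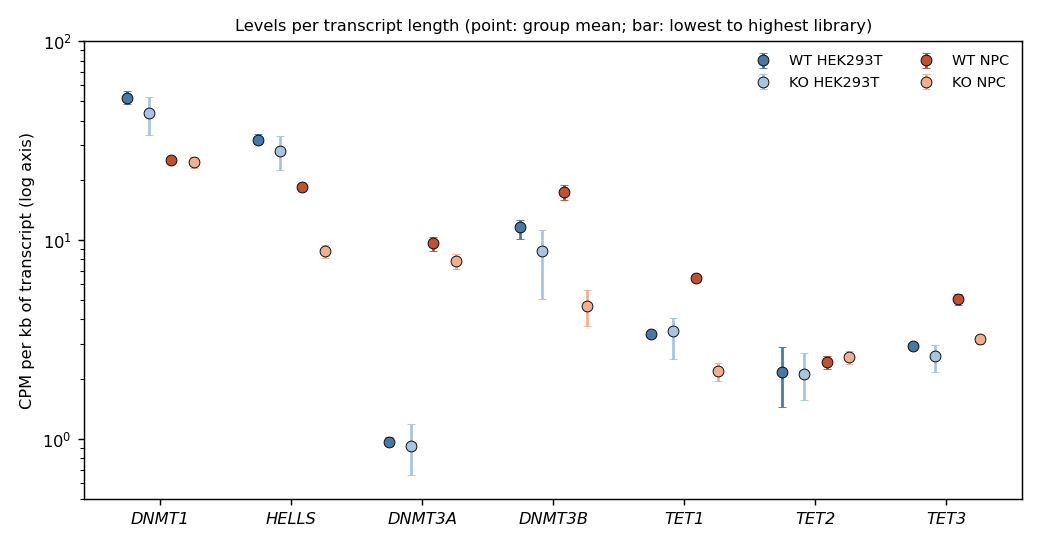
Level of each gene in CPM per kb of its canonical transcript (y axis, log scale) in the 4 groups, with the mean as the point and the lowest to highest library as the bar. DNMT1 is highest in all 4 groups, DNMT3A lowest in HEK293T cells (0.962 in WT), and TET1 is above TET3 and TET2 in WT NPCs (6.47) and below them in KO NPCs (2.19) on this scale, though per kb of all annotated exons it stays above TET2.

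Levels of different genes were compared as CPM per kb of the Ensembl canonical transcript. In WT HEK293T cells the order was DNMT1 (51.9 ± 4.18, SD, n = 3), HELLS (32.03 ± 1.91), DNMT3B (11.7 ± 1.36), TET1 (3.37 ± 0.0888), TET3 (2.94 ± 0.103), TET2 (2.17 ± 0.729) and DNMT3A (0.962 ± 0.0503). Of the neighbours in this order, TET3 and TET2 overlapped and the others did not. The 2 de novo enzymes thus stood at opposite ends of the lower range, DNMT3B far above DNMT3A.

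In WT NPCs the order was DNMT1 (25.4 ± 0.275, SD, n = 2), HELLS (18.5 ± 0.863), DNMT3B (17.5 ± 2.13), DNMT3A (9.63 ± 1.11), TET1 (6.47 ± 0.0647), TET3 (5.05 ± 0.452) and TET2 (2.43 ± 0.266), where HELLS and DNMT3B overlapped. In KO NPCs it was DNMT1 (24.6 ± 2.09), HELLS (8.80 ± 0.938), DNMT3A (7.88 ± 0.960), DNMT3B (4.68 ± 1.36), TET3 (3.17 ± 0.228), TET2 (2.58 ± 0.266) and TET1 (2.19 ± 0.327). There HELLS overlapped DNMT3A, and TET2 overlapped TET1. By this length DNMT3B was above DNMT3A in WT and below it in KO NPCs, and TET1 was the first of the TET genes in WT and the last in KO. These orders depend on the length used, as shown by 2 other scales added after the data were seen. Per kb of the union of annotated exons, TET1 (2.19) stayed above TET2 in KO NPCs and below TET3 (2.95), and DNMT3B (11.01) was above DNMT1 (8.72) in WT NPCs. On that scale HELLS moved from the second place to the sixth in both NPC groups, at 4.06 in WT, below TET3 (4.70), and at 1.93 in KO, below TET1, and in WT HEK293T cells it stood at 7.04, below DNMT3B (7.38). In CPM without division by length DNMT3A (90.7) was already above DNMT3B (75.7) in WT NPCs.

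The ratio of DNMT3A to DNMT3B within a library does not depend on the scaling of libraries, and was higher in both KO NPC libraries than in any other. Its log2 value per kb of the canonical transcript was -0.85 in S3 and -0.86 in S5, the WT NPCs. In the KO NPCs it was 0.35 in S1 and 1.20 in S2, so DNMT3A exceeded DNMT3B in both. The sign in WT NPCs depends on the length: without division by length the log2 ratio was 0.27 and 0.26 in WT and 1.47 and 2.32 in KO NPCs, and per union exonic length -0.73 and -0.75 in WT and 0.47 and 1.32 in KO. Per kb of the canonical transcript the HEK293T values were -3.43, -3.64 and -3.74 in WT and -2.94, -3.48 and -3.23 in KO, overlapping and below 0 throughout. With 2 against 2 libraries the exact two-sided permutation P is 0.333, the smallest possible, and with 3 against 3 it was 0.2, where 0.1 is the smallest.

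TET1 made up 48.3 and 44.6% of the summed TET level per kb in WT NPCs and 28.4 and 26.6% in KO NPCs. TET2, whose level did not pass the test, made up 16.6 and 18.2% in WT and 32.5 and 32.5% in KO. TET3 made up 35.1 and 37.2% in WT and 39.1 and 40.9% in KO. The shares of none of the 3 genes overlapped between genotypes in NPCs. The exact two-sided permutation P was 0.333 for each, the smallest possible with 2 against 2 libraries. The 3 shares add up to a whole and so are not separate results. In HEK293T cells the share of TET1 was 36.8 to 43.2% in WT and 40.2 to 45.7% in KO, which overlapped (exact two-sided permutation P = 0.4).

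**Figure D4:**
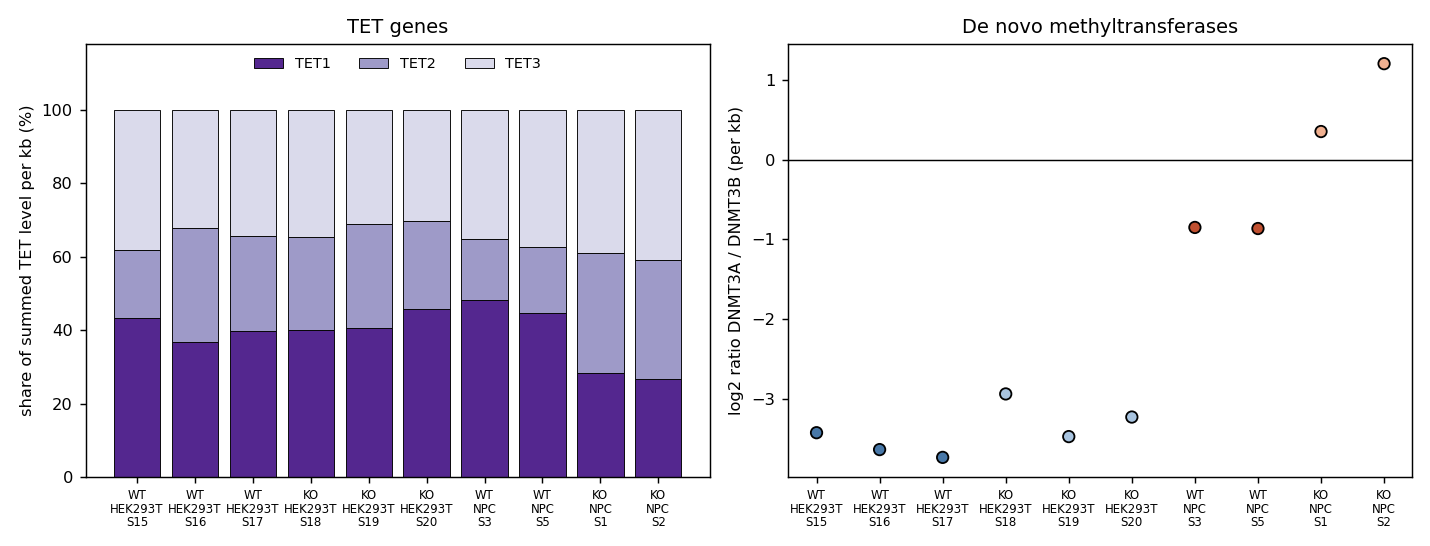
Left, share of TET1, TET2 and TET3 in their summed level per kb (y axis, %) in each of the 10 libraries (bars). Right, log2 ratio of DNMT3A to DNMT3B per kb of the canonical transcript (y axis) in the same libraries (points), with the line at equal levels. By canonical transcript length, both KO NPC libraries differ from the other 8 in a TET1 share under 30% and in a ratio above 0 (0.35 and 1.20). Both cutoffs depend on the length used.

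DNMT1 and HELLS are known as genes of S phase, and their promoters hold the E2F-like words printed above, TTTCGCGC in DNMT1 and TTTGGCGC and TTTCCCGC in HELLS. Their levels were therefore set against 35 other S phase genes. The summed level of these was 4488 and 4644 CPM in WT and 3158 and 3457 CPM in KO NPCs, and their median log2 FC was -0.41. Of the 35, 2 (CDT1, a replication licensing factor, and E2F2) were called lower and 0 higher, where 8.36% of all genes were called lower. By log2 FC 30 of the 35 were below 0, and 22 had an unadjusted P below 0.05, 21 of them lower, where 40.3% of all genes had such a P in either direction. Relative to this sum, DNMT1 was 0.42 higher on the log2 scale in KO than in WT NPCs and HELLS 0.61 lower (log2 difference -0.61), each with separate groups and the exact permutation P at its smallest, 0.333. In HEK293T cells the same differences were -0.21 and -0.15 with overlapping groups. Of 18 mitosis genes, 6 were called lower and 0 higher in KO NPCs, where 8.36% of all genes were called lower, with a median log2 FC of -0.86 and all 18 at an unadjusted P below 0.05, among them CENPF at -1.24 and TOP2A at -1.07. The part that proliferation has in the fall of HELLS was not tested.

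Partners of the members are given by list, and in NPCs their counts stand beside 16.8% of all genes called in either direction and 40.3% with an unadjusted P below 0.05, and in HEK293T cells beside 0.489% and 7.12%. Over these and the germline list, 7 lists in all, 4 of 60 genes tested were called in NPCs and 28 had an unadjusted P below 0.05. Of 8 partners of maintenance methylation edgeR called 0 in either cell type, with 2 in HEK293T cells and 3 in NPCs at an unadjusted P below 0.05. LIG1, the ligase of replication, had a log2 FC of -0.80 (adjusted P = 0.00193, edgeR) and the sliding clamp PCNA -0.67 (adjusted P = 0.0102) in NPCs. UHRF2, a relative of UHRF1, stood at 45.6 ± 4.03 CPM in WT and 50.3 ± 2.66 CPM in KO NPCs (adjusted P = 0.520). Of the 5 tested partners of de novo methylation 0 were called, with 0 and 2 at that unadjusted level in HEK293T cells and NPCs, the histone methyltransferases NSD2 and NSD3 being at -0.80 (adjusted P = 0.00255) and -0.38 (adjusted P = 0.0335) in NPCs.

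Of the 7 tested TET partners and cofactor enzymes, 1 was called lower and 1 higher in KO NPCs, and 5 had an unadjusted P below 0.05. CXXC4, a CpG-binding protein that restrains TET2, fell from 26.1 ± 0.468 to 1.505 ± 0.0143 CPM (log2 FC -4.13, adjusted P = 5.59e-05, edgeR). Its relative CXXC5 rose from 79.5 ± 4.40 to 199.98 ± 6.34 CPM (log2 FC 1.31, adjusted P = 0.000294). In HEK293T cells CXXC4 had a log2 FC of 0.15 and CXXC5 of -0.19, and the interaction passed for both, at -4.26 (adjusted P = 0.00218) and 1.52 (adjusted P = 0.00554).

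Of the 7 readers of methylated CpG, 5 had an unadjusted P below 0.05 in NPCs, 4 of them higher and 1 lower, and MBD2 was the only one called, rising in KO NPCs from 33.8 ± 4.81 to 79.3 ± 10.3 CPM (log2 FC 1.22, adjusted P = 0.00179, edgeR). Base excision repair of oxidised cytosine had 0 of 14 called in NPCs, where 5 had an unadjusted P below 0.05, with PARP1 at -0.94 (adjusted P = 0.000830) and LIG3 at -0.73 (adjusted P = 0.00330) in NPCs, under the 2-fold threshold. The methyl donor cycle had 0 of 11 called and 7 at that unadjusted level in NPCs, with MAT2B at -0.69 (adjusted P = 0.00372). Germline genes, a class held silent by promoter methylation in somatic cells, had 1 of 8 tested called in NPCs, of 28 listed and 17 matched to an identifier, so that most of the list has no value. It was TEX15, which rose from 2.61 ± 0.734 to 8.04 ± 1.22 CPM (log2 FC 1.61, adjusted P = 0.00987, edgeR). TEX15 was not silent in HEK293T cells, at 12.97 ± 2.55 CPM in WT and 11.03 ± 4.86 CPM in KO. In HEK293T cells 0 of the 58 genes tested in these 7 lists were called by edgeR, with 6 at an unadjusted P below 0.05, where the shares over all genes were 0.489% and 7.12%.

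The fall of DNMT3B and TET1 is set here beside other marker genes in the same libraries, where 8.36% of all genes were called lower, 8.45% higher and 16.8% in either direction. Among the 7 tested pluripotent markers, 2 were called lower and 1 higher in KO NPCs: LIN28A, an RNA-binding protein of stem cells, fell from 74.4 ± 14.8 to 1.51 ± 0.521 CPM, SALL4 from 18.8 ± 7.19 to 1.80 ± 0.341 CPM, and ZFP42 rose from 0.598 to 5.58 CPM. The summed level of the 7 was 157 and 186 CPM in WT and 78.9 and 72.6 CPM in KO NPCs. Of 9 neuron markers 4 were called lower and 1 higher, of 7 neural crest markers 2 higher (PAX3 and SOX10), and of 4 kidney lineage markers 1 higher (SIX2). Their part in the fall of the members was not tested.

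Over all 10 libraries, DNMT3B and TET1 had profiles close to each other. The root mean square difference of their centred log2 CPM was 0.311, and 9 of 13714 genes were nearer to DNMT3B than TET1 was. How many genes were nearer to TET1 than DNMT3B was not counted. The nearest to DNMT3B were MAP2K6 (0.201) and MOB3B (0.227) and to TET1 RMI2 (0.135) and CACHD1 (0.159). For DNMT1 they were AXIN1 (0.0755) and STIP1 (0.0817), for HELLS MAZ (0.120) and TRAF3IP1 (0.128), and for DNMT3A PAK3 (0.185) and TRIM46 (0.210). SMAD5 (0.137) and ETNK1 (0.143) were nearest to TET2, and PHC1 (0.0877) and RABL2B (0.115) to TET3. The distance is a description over libraries that share cell type and genotype.

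Of the genes within 200000 bases of a member, 6 of 49 tested (12.2%) were called in KO NPCs, where 16.8% of all genes were. They were 0 of 2 tested neighbours of HELLS, 1 of 5 of DNMT3B (NOL4L, higher), 2 of 7 of TET1, 1 in each direction (SLC25A16 and STOX1), 2 of 18 of DNMT1 (ICAM1 and RAVER1, 1 in each direction), 1 of 11 of TET3 (ACTG2, higher), 0 of 4 of DNMT3A and 0 of 2 of TET2. Same-strand genes that overlap DNMT1 (S1PR2) and TET3 (ENSG00000235499) had at most 62 and 32 counts in a library. The smallest count behind any member value was 143, for DNMT3A in S18.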

How the data were processed

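Total RNA of 10 cultured-cell libraries was sequenced (stranded poly(A) mRNA kit). Per the labels and the study's methods, the authors aligned reads by HISAT2 on hg19 and obtained gene counts from uniquely mapped reads by featureCounts; versions and strand setting of the counting are not given in the sources used here. The deposited values are raw counts per gene, 1 table for each cell type (22750 genes for HEK293T, 20965 for NPCs). Unique mapping can lower counts of genes with near-identical copies.

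Identifiers were paired with symbols through GENCODE (23273 of 24050); UHRF1 could not be paired. Genes with a total count below the number of libraries were discarded. The main test was the quasi-likelihood test of edgeR 4.0.16 (R 4.3.3) after TMM scaling, adjusted by Benjamini-Hochberg and run on each cell type alone; the interaction and cell type contrasts used 1 fit of genes in both tables. Alternatives used DESeq2 1.42.0 and limma 3.58.1 voom, the study's own test. Printed CPM are TMM-scaled over all 10 libraries. Values are mean ± SD. The count tests were tested on simulated data. Depth was 18621266 to 32285876 counts per library, and floors cover counting error only. No 2 libraries of a group agreed within sampling noise. Named genes were the members, ZNF274, called list genes (at most 4 of a list, otherwise the 2 with the smallest P) and the 2 nearest profiles of each member; other genes (NES, HES5, UHRF2, and neighbouring or overlapping genes) were named after their values were seen, and 1 gene that the rule names is not reported here. The members and the 15 gene lists were chosen with earlier results of these data known. Protein features were planned and not computed.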

Additional observations from a re-analysis of the deposited data

Results flagged for a closer look

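For 3 members the effect of ZNF274 KO differed between NPCs and HEK293T cells by the interaction test of edgeR. The log2 FC in NPCs minus that in HEK293T cells was -1.61 for TET1, -1.49 for DNMT3B and -0.88 for HELLS, with adjusted P values of 0.00272, 0.0280 and 0.0243. On leaving out 1 library the adjusted P of TET1 stayed below 0.05, while that of DNMT3B reached 0.133 (without KO NPC S2) and that of HELLS 0.125 (without KO NPC S1). Both KO NPC libraries lay below both WT NPC libraries for each of the 3 genes, while the HEK293T groups overlapped. The 3 genes were picked by a test on these same libraries, so this separation adds no evidence. Groups of 2 also separate more easily than groups of 3. In NPCs 5 of 7 members were separate, and the share over all genes was not computed. No group held 4 or more libraries, so single libraries were not tested for standing apart.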

How the results depend on the processing

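Of 455 member log2 FCs recomputed under an alternative, 431 stayed on their side of the threshold, 13 lost a call, 11 gained one and 0 called values reversed. Of the 431, 410 had the same sign and 21 the other, and the 21 were not called under either setting: they belong to TET2, DNMT1, DNMT3A, TET1 and DNMT3B, the last only in KO cells set against each other. In NPCs HELLS, DNMT3B and TET1 were called under each alternative run, except HELLS without KO NPC S1 (log2 FC -0.99). In WT NPCs against WT HEK293T cells, members called lower went from 1 to 0 (DNMT1) with DESeq2 (-0.96), DESeq2 size factors (-0.96), library size alone (-0.94) and filterByExpr (-0.99), and ranged from 0 to 1 on leaving out 1 library; members called higher went from 1 to 2 (TET1 added) with the first 3. At any FC the counts were 3 higher and 2 lower. For the difference between cell types, members called lower went from 2 to 1 at adjusted P below 0.01 and ranged from 1 to 3 on leaving out 1 library. All genes called in HEK293T cells numbered 93, 162 with DESeq2, 61 at adjusted P below 0.01, and 44 to 116 without 1 library. In NPCs they were 3459, 5890 at any FC, 2225 at adjusted P below 0.01, and 2084 to 4038 without 1 library, the lone library being taken to vary like the rest. For the difference they were 2354, 1224 at adjusted P below 0.01, and 1455 to 2494 without 1 library. With library size alone the median of all genes moved from -0.02 to -0.13 in NPCs and from 0.01 to 0.10 in HEK293T cells. The TET2 share rose in KO NPCs by 15.1 percentage points, by 13.6 without division by length and by 11.4 per union exonic length, the last added after the data were seen. The TET3 share rose by 3.83, 4.01 and 7.19 percentage points on these scales. For the TET1 share the change was -18.9 percentage points, and -20.8 to -17.1 under 6 alternatives, these scales among them. No paired analysis was possible because the library numbers in the labels are not shared between groups. The cause of these shifts was not tested.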
